A study of Mus musculus with 574 samples.

Results

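The cells described here are GMPs, the granulocyte and macrophage progenitors of the marrow, from mice on day 8 after 5-fluorouracil (5-FU) and sequenced one by one. They were taken by their label (day 8, sets 1 and 2) and by depth, with no expression value used: of 190 day 8 cells, 183 reached 50000 reads assigned to genes and 1000 detected genes, and 7 did not. Set 1 held 90 of 96 cells and set 2 held 93 of 94. In the whole series, 500 of 573 cells passed the same limits.

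All groups are C57Bl/6 wild-type mice of 6 to 12 weeks, and every set carries the label 5-FU. For days 8, 10, 12 and 14 it was given as a single dose of 150 mg/kg, and for day 0 no dose is assigned. The sets compared are day 0 (92 cells kept), day 8 (2 sets), day 10 (93), day 12 (85) and day 14 (47). The protocol also names mice given PBS, without saying whether they gave the day 0 set, and it does not give the number of mice behind a set or which bones were crushed and which flushed. GMPs were sorted as lineage-negative, c-Kit+, Sca-1-, CD34+ and FcγR+ cells, as single cells into plates. Libraries followed Smart-seq2, a method that covers whole transcripts and carries no molecular identifiers.

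5-FU blocks thymidylate synthesis and kills dividing cells, after which the marrow is rebuilt from cells that were not cycling. GMPs give rise to neutrophils and monocytes. The neutrophil branch starts with the proteases and peroxidase of the primary granules, stored in membrane vesicles after passing through the endoplasmic reticulum, and the monocyte branch depends on the transcription factor Irf8. Cells closer to the stem cell carry surface proteins such as Adgrg1 (GPR56), an adhesion receptor of blood stem cells.

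The kept day 8 cells had a median of 289938 (set 1) and 214717 (set 2) reads in genes, within a range of 51260 to 1280086. Because depth differs between cells, each cell was thinned at random to 50000 reads before cells were compared, and the thinned cells had a median of 5854.5 and 5851 genes with a read. No 2 cells had identical counts. Genes of the sort gate were read: Cd34 in 89 of 90 and 91 of 93 thinned cells, Kit in 64 and 84, and Fcgr3 in 67 and 66, while Ly6a, which encodes Sca-1, had a read in 13 and 14. Of the lineage genes, Cd8a had no read in any day 8 cell, which allows up to 3.33% and 3.23% of cells, and Cd3e had a read in 1 and 3 cells. Not all genes of this list were absent: Ptprc reached 10 thinned reads in 22 and 15 cells, and Itgam had at most 9 and 7 reads in a cell. The Y-linked gene Eif2s3y stood at 77.4 CPM (set 1) and 55.4 CPM (set 2), against 0.782 at day 0, 82.8 at day 10, 1.11 at day 12 and 69.1 at day 14, so against days 0 and 12 the day and the sex of the mice cannot be told apart, and the male sets of days 10 and 14 were also used alone as the other side. The phosphate transporter gene Slc34a2 took a median of 9.68% and 16.3% of reads in the day 8 sets (13.4 to 31.2% in the other sets), and this share is given beside the results it moved with.

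Ifitm1, Lcn2 and Adgrg1 are the 3 genes named as markers of these cells. Ifitm1 encodes an interferon-induced membrane protein, and its lowest, median and highest thinned reads per cell were 0, 18 and 110 in set 1 and 1, 38 and 163 in set 2. It stood at 436 CPM (set 1) and 799 CPM (set 2), against 39.1 at day 0, 500.2 at day 10, 36.6 at day 12 and 92.9 at day 14 (CPM: counts summed over the cells of a set and scaled to a common library total). Day 10 lay between the day 8 sets and the other days lay far below, so the groups overlapped. Adgrg1 had 0, 10.5 and 86 in set 1 and 0, 12 and 83 in set 2, and stood at 314 CPM (set 1) and 282 CPM (set 2), against 133 at day 0, 143 at day 10, 134 at day 12 and 71.4 at day 14, with both day 8 sets above all others. Lcn2, the iron-binding protein of neutrophil granules, had 0, 3 and 22 in set 1 and 0, 1 and 31 in set 2, and stood at 83.9 CPM (set 1) and 101 CPM (set 2), against 14.1 at day 0, 152 at day 10, 22.4 at day 12 and 33.1 at day 14, where day 10 was above both day 8 sets.

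Against the 4 other sets taken as 1 group, none of the 3 markers passed the edgeR quasi-likelihood test over all genes. The log2 fold changes, with their standard errors, were 1.88 ± 0.82 for Ifitm1 (adjusted p = 0.459), 1.30 ± 0.24 for Adgrg1 (adjusted p = 0.0835) and 0.72 ± 0.70 for Lcn2 (adjusted p = 0.714). In 5 of 10 alternatives Adgrg1 passed, and in the others it did not. Among the 5 was a mean per day, where only the gap between the 2 day 8 sets measures variation between sets. Its adjusted p by edgeR was 0.0195 without day 14, 1.16e-06 with no gene filter and 0.047 with thinned cells. With the DESeq2 Wald test it was 5.59e-04. Of the 8 calls that the 3 markers gained over these alternatives, 5 were for Adgrg1 and the rest for Ifitm1 or Lcn2. By level, day 10 lay between the day 8 sets for Ifitm1 and above both for Lcn2. The plot of reads per cell by set shows how wide the range within day 8 was.

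**Figure D1:**
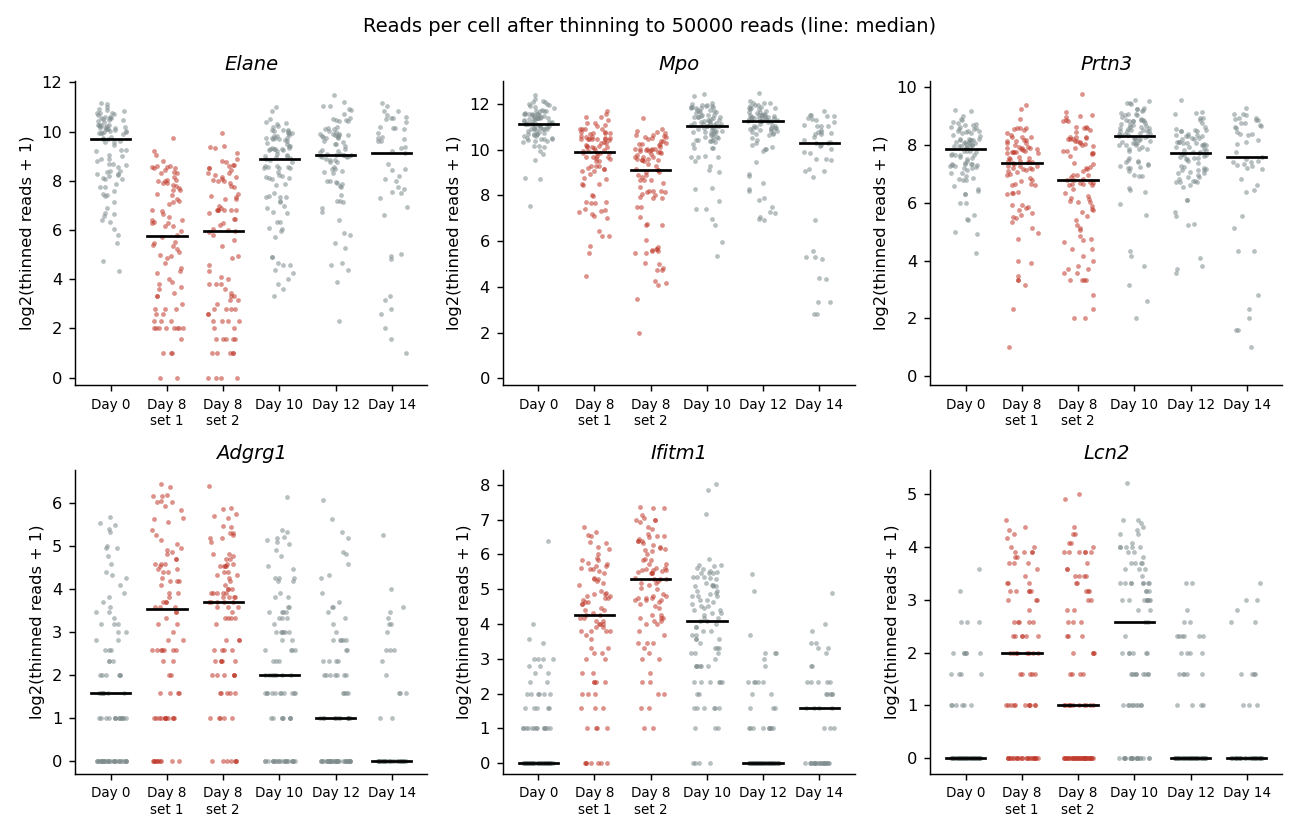
Thinned reads per cell, as log2(reads + 1), for 6 genes in the 6 sets; each point is 1 cell, the line is the median, and day 8 is in red. Elane had a median of 52.5 and 61 reads on day 8 against 827 on day 0, and on day 8 reached from 0 to 978.

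Among day 8 cells the largest spread for their level was found for Mir6236, Ly6c2 and Elane. A gene was called variable if its squared coefficient of variation over thinned cells lay at least 1 log2 unit above the trend of its set. Of 1326 genes with a mean of at least 5 thinned reads in both sets, 79 passed in set 1 and 68 in set 2, and 52 (3.92% of those considered) passed in both, which is 65.8% of the first list and 76.5% of the second. Just inside the threshold lay Nkg7 and Vim (the first at 1.01 in the weaker set), just outside Lgals1 and Pigk (0.995 and 0.986).

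The 20 most variable genes by the weaker set are given by what they encode. Granule proteins were Elane (neutrophil elastase, 3.74 and 3.45 above the trend in sets 1 and 2), Ctsg (cathepsin G, 2.48 and 2.71), Mpo (myeloperoxidase, 2.79 and 2.29), Prtn3 (proteinase 3, 2.25 and 2.53) and Srgn, the proteoglycan core of granules (1.93 and 1.85), together with Ms4a3, Gstm1 and Lyz2. Genes of monocytic cells were Ly6c2 (4.61 and 5.15), Irf8 (3.17 and 3.84) and the lectin receptor Clec12a (2.25 and 1.99), with the chemokine Ccl9. Car2 (carbonic anhydrase 2) reached 3.09 and 3.97, the basophil protease Mcpt8 5.39 and 2.83, Lgals9 (galectin-9) 2.49 and 2.18, the protease inhibitor Serpina3g 2.34 and 2.01, and Ifitm1 2.20 and 1.84. Ube2c, an enzyme of mitotic exit, reached 2.34 and 2.40. The remaining 2 are the non-coding loci Gm26917 and Mir6236, of which Mir6236 had a mean of 23.2 reads in set 1 and 240.2 in set 2 at medians of 2 and 7. The highest cell of each set held 1798 and 6042 of its reads.

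For the granule genes, a part of the day 8 cells lay below the range of day 0. Elane had fewer reads than the lowest day 0 cell (19 thinned reads) in 32 of 90 cells of set 1 and 38 of 93 of set 2, and reached the day 0 median of 827 in 1 cell of each set. Mpo lay below the lowest day 0 cell (184 reads) in 13 and 25 cells and reached its median in 7 and 1. Prtn3 and Ctsg were split more evenly: Prtn3 was below the lowest day 0 cell in 8 and 15 cells and at or above the day 0 median in 27 and 29, and Ctsg in 3 and 11 and in 35 and 35. Ly6c2 had fewer than 2 reads, the lowest value on day 0, in 38 and 64 cells. Such cells were also found on other days: for days 10, 12 and 14 they numbered 5, 2 and 7 for Elane, 6, 6 and 11 for Mpo, 5, 4 and 6 for Prtn3, 4, 1 and 6 for Ctsg and 16, 3 and 7 for Ly6c2. Of the 47 day 14 cells this was 23.4% for Mpo and 12.8% for Ctsg, against 14.4% and 26.9% and 3.33% and 11.8% in the day 8 sets. At the other end, Adgrg1 exceeded the highest day 0 cell (50 reads) in 10 and 5 cells, Ifitm1 (82 reads) in 4 and 18, and Lgals9 (74 reads) in 5 and 8.

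Correlations across cells were computed as Spearman's rho of thinned counts with the number of detected genes partialled out, in each set on its own. Cells of a set share their mice, sort and library preparation and are not replicates, so no p is given. Over the 124750 pairs of the 500 most variable genes the median rho was 0.027 in set 1 and 0.032 in set 2. In both sets, 731 pairs (0.586%) lay at 0.4 or over and 121 (0.097%) at -0.4 or under, with 142 genes involved. The negative pairs numbered 234 in cells thinned to 100000 reads, 240 with nothing partialled out and 194 without Slc34a2 and CT010467.1. With total reads and the share of Slc34a2 also partialled out, 490 positive and 90 negative pairs passed. Of the 852 pairs reported here, 562 were among them. The 100 highest pairs of set 1, with a median of 0.70, had a median of 0.68 in set 2, where 98 passed 0.4, and the 100 highest of set 2 (0.72) had 0.67 in set 1, where 100 passed. The lowest pairs carried over less: those of set 1 went from a median of -0.55 to -0.38 and those of set 2 from -0.53 to -0.44.

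**Figure D2:**
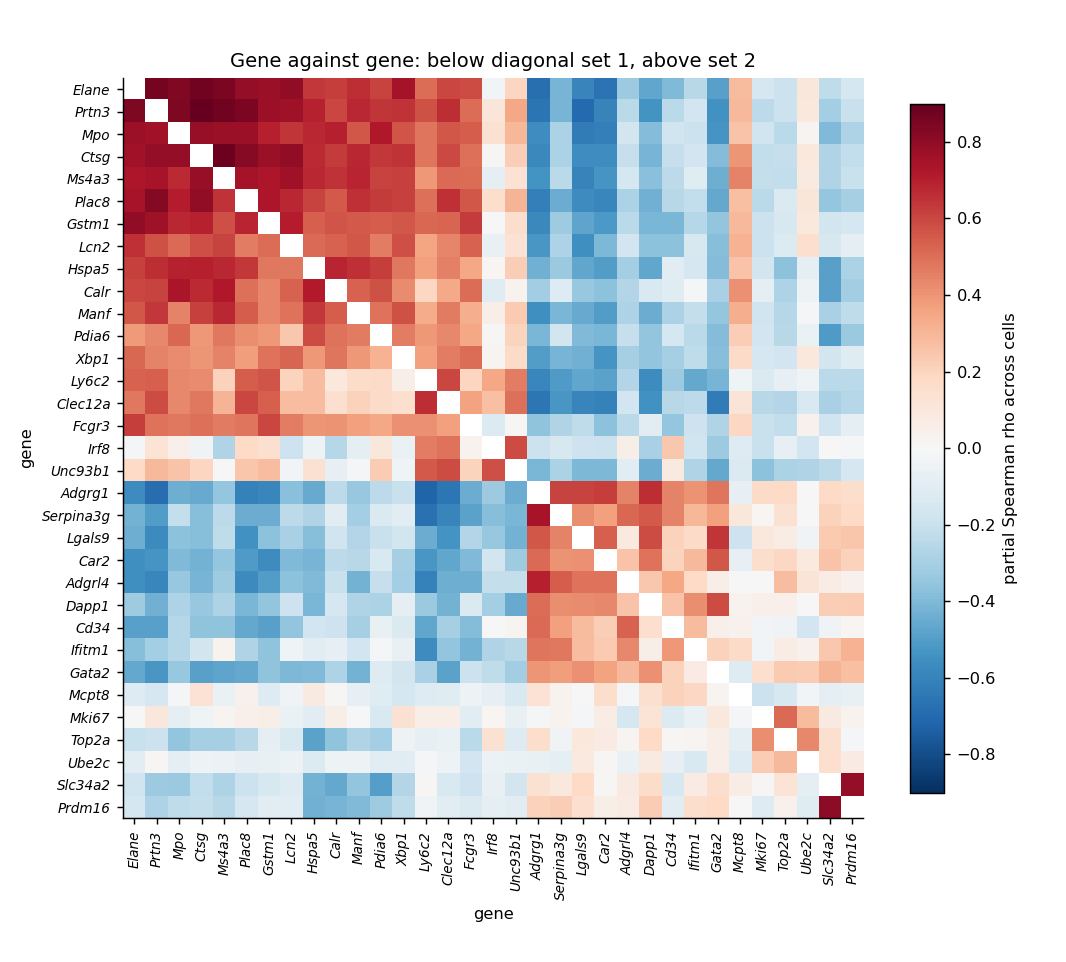
Partial Spearman rho across cells for 33 genes, set 1 below the diagonal and set 2 above it; red is positive and blue negative. The granule and chaperone genes form a red block at the top left, the Adgrg1 group a second one, and the fields between them are blue in both sets, such as Prtn3 and Adgrg1 at -0.69 and -0.66.

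Joining pairs at 0.5 or over in both sets (336 pairs) gave 9 groups. The largest holds 39 genes and is led by the primary granule genes. Ly6c2 and Clec12a, named above with genes of monocytic cells, are members of it too, while Irf8 and Unc93b1 form a separate group of 2. Elane and Prtn3 correlated at 0.84 and 0.86 in sets 1 and 2, Ctsg and Prtn3 at 0.79 and 0.89, Ctsg and the membrane protein gene Ms4a3 at 0.79 and 0.88, Ctsg and Mpo at 0.79 and 0.78, Elane and Mpo at 0.77 and 0.83, and Elane and the glutathione transferase gene Gstm1 at 0.80 and 0.78, with Prtn3 and Gstm1 at 0.76 and 0.77. Plac8, a small cysteine-rich protein, followed Prtn3 at 0.82 and 0.85 and Ctsg at 0.80 and 0.82. Elane and Prtn3 lie near each other on chromosome 10, and Ctsg and Mcpt8 on chromosome 14. Transcripts of Elane share 0% of their 31-base words with Prtn3, and Mcpt8 had no partner past 0.4 in both sets among the 500 genes. Whether position on the chromosome plays a part in these correlations was not tested. Of the list of 13 genes of granulocyte priming, 11 had a read in at least 20% of thinned cells of both sets, and 52 of their 55 pairs were positive in both. The median rho of these pairs was 0.42 and 0.44, beside 0.005 and 0.007 over all pairs of 8420 genes so filtered. The share of all pairs that were positive in both sets was not counted. For the same 11 genes the median was 0.28, 0.24, 0.36 and 0.47 on days 0, 10, 12 and 14.

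The promoters of these genes show what sequence the correlated genes carry at their starts, from 250 bases before to 50 after (RefSeq, GRCm38.p6). Shown are 4 genes of the granule group, its partner Lcn2, and Adgrg1, whose pair with Prtn3 had the lowest rho by the weaker set. Capitals mark AGGAAG, the core of PU.1 sites, TTGCNNAA of C/EBP factors and AGATAA of GATA factors, on either strand.
Elane, chr10:79886062-79886361 (plus strand): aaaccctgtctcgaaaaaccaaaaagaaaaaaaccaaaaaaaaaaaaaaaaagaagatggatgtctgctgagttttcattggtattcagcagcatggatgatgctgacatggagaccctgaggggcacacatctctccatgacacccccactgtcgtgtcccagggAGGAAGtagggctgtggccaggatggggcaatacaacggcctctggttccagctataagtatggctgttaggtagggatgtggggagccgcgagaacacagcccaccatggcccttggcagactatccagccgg
Prtn3, chr10:79879417-79879716 (plus strand): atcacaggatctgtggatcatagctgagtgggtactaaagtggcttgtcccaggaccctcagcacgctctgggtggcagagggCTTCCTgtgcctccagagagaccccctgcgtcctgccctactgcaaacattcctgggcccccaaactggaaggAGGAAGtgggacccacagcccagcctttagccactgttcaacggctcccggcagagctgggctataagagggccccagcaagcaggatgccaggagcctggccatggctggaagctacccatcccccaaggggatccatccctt
Ctsg, chr14:56102525-56102824 (minus strand): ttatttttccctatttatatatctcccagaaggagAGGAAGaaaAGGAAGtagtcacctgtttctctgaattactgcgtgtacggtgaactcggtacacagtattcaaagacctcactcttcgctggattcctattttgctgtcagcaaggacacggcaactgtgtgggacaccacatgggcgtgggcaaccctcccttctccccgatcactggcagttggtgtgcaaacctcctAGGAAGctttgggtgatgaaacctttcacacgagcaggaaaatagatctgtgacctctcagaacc
Mpo, chr11:87793534-87793833 (plus strand): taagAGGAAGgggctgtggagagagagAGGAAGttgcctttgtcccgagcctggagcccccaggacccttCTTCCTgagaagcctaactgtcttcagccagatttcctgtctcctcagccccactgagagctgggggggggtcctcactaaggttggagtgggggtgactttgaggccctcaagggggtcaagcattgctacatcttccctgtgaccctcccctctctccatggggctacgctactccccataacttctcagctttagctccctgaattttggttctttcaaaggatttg
Lcn2, chr2:32387690-32387989 (minus strand): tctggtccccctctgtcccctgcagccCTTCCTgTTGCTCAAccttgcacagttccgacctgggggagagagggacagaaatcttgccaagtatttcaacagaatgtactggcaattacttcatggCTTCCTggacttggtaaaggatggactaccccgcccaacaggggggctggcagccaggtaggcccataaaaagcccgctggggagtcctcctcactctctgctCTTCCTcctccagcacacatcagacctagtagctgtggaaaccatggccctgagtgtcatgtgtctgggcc
Adgrg1, chr8:94976859-94977158 (plus strand): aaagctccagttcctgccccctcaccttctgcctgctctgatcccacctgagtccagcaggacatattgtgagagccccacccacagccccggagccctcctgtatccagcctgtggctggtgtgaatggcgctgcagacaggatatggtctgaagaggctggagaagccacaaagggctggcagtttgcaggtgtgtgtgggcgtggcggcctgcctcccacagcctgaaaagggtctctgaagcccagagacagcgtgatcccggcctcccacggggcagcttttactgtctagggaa
AGGAAG occurred once for Elane, 2 times for Prtn3 and 3 times each for Ctsg, Mpo and Lcn2, while the Adgrg1 window held no match of any of the 3. TTGCNNAA was found for Lcn2 alone of the 6, next to an AGGAAG match. Of the 33 genes of the granule group with an entry, 15 (45.5%) held AGGAAG and 4 (12.1%) TTGCNNAA, against 35.2% and 10.8% of the first-listed promoters of 27025 genes, and 2 (6.06%) held AGATAA against 11.4%. In the Adgrg1 group, 4 of 7 entries held AGGAAG. These are matches of letters in a window and no measure of binding.

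Cells with more Adgrg1 had less granule RNA. Prtn3 and Adgrg1 correlated at -0.69 and -0.66, the lowest value of all pairs by the weaker set, followed by Clec12a at -0.65 and -0.65, Plac8 at -0.61 and -0.61, the actin-severing Dstn at -0.60 and -0.60 and Ly6c2 at -0.72 and -0.59. The cells of each set were ordered by Adgrg1, and the 30 (set 1) or 31 (set 2) with the least and with the most are called Adgrg1-low and Adgrg1-high; no test is given, as Adgrg1 chose them. Elane had a median of 159 and 252 reads in the Adgrg1-low cells and 6 and 6 in the Adgrg1-high cells. Prtn3 had 238 and 298 reads in the Adgrg1-low cells and 54.5 and 36 in the Adgrg1-high cells, Mpo 1257 and 1036 reads in the Adgrg1-low cells and 304 and 241 in the Adgrg1-high cells, and Ctsg 398 and 497 reads in the Adgrg1-low cells and 203 and 127 in the Adgrg1-high cells. Ly6c2 had a median of 51 and 9 reads in the Adgrg1-low cells and 0 in the Adgrg1-high cells of both sets. The opposite order held for Cd34, at 10 and 12 reads in the Adgrg1-low cells and 46 and 41 in the Adgrg1-high cells. Detected genes stood at 5768 and 5909 genes in the Adgrg1-low cells and 5890 and 5786 in the Adgrg1-high cells, while the Slc34a2 count was 4634 and 6208 reads in the Adgrg1-low cells and 5264 and 8742 in the Adgrg1-high cells.

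**Figure D3:**
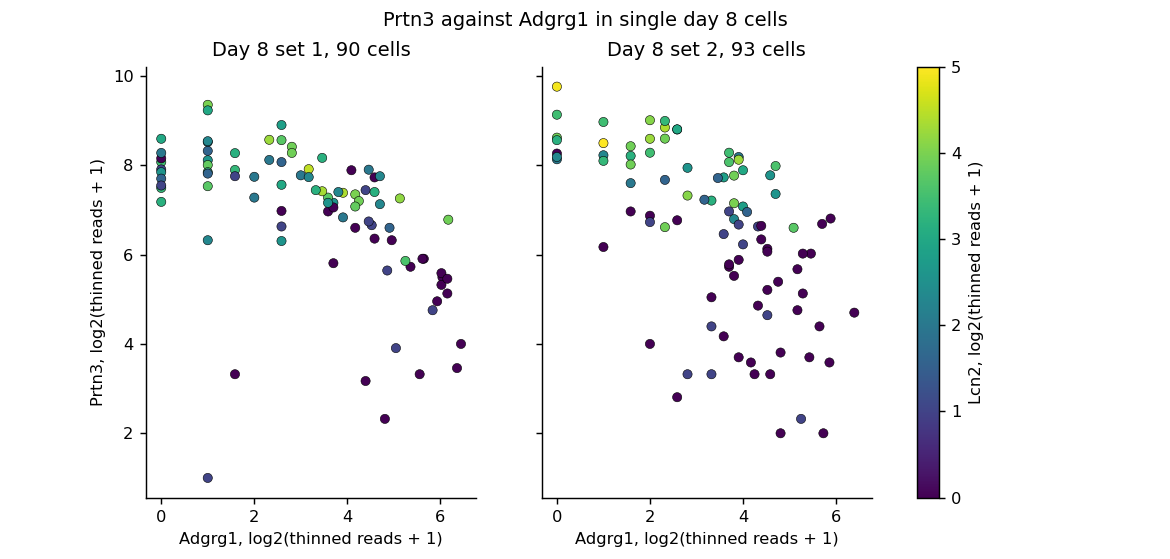
Prtn3 against Adgrg1 in single day 8 cells, as log2(thinned reads + 1), coloured by Lcn2; each point is 1 cell. The cells run along 1 falling cloud in both sets (rho -0.69 and -0.66), and the cells with the most Lcn2 lie towards its upper end.

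Of the 8419 other genes, 28 (0.333%) correlated with Adgrg1 at 0.4 or over and 30 (0.356%) at -0.4 or under in both sets. The closest were Serpina3g (0.74 and 0.61), Ctla2a, an inhibitor of cysteine proteases (0.62 and 0.60), Tmem176b (0.62 and 0.58), Angpt1, the ligand of the receptor Tie2 (0.57 and 0.57), and Lgals9 (0.56 and 0.61). Serpina3g shares 16.2% of its 31-base words with Serpina3f, and Ctla2a 20.8% with Ctla2b, so part of their reads could belong to the copy. Adgrg1, Adgrl4, Car2, Dapp1, Fut8, Lgals9, Serpina3g and Tmem176b form the third of the 9 groups. Cells were rarely high in Adgrg1 and Ly6c2 at once: both had at least 10 thinned reads in 2 of 90 cells (2.22%, exact 95% interval 0.270 to 7.80%) and 1 of 93 (1.08%, 0.0272 to 5.85%), although 47 and 53 cells passed for Adgrg1 and 28 and 18 for Ly6c2. Elane passed in 65 and 62 cells, and Adgrg1 and Elane both passed in 27 and 28, so the cells of either gene overlap. Ly6c2 shares 21.4% of its 31-base words with Ly6c1. The opposition of Ly6c2 and Adgrg1 was also seen on days 0, 10, 12 and 14, at -0.61, -0.60, -0.36 and -0.32. Prtn3 and Adgrg1 stood at -0.28, -0.38, -0.19 and -0.16 on these days.

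Lcn2 followed the granule genes. In both sets 34 genes (0.404%) passed 0.4 with it and 2 (0.0238%) passed -0.4. Its closest partners were Elane (0.66 and 0.80), Ms4a3 (0.61 and 0.76), Ctsg (0.58 and 0.80), Prtn3 (0.57 and 0.76) and the cell cycle regulator Rgcc (0.55 and 0.59), and the most opposed were Angpt1 (-0.54 and -0.43), Crip1 (-0.45 and -0.42), Car2 (-0.40 and -0.41), the transcription factor gene Gata2 (-0.40 and -0.38) and S100a10 (-0.38 and -0.45). Of the 18 and 21 cells with at least 10 reads of Lcn2, 17 and 21 had at least 10 of Elane. Over all cells, 65 of 90 and 62 of 93 did. Of the other late neutrophil genes, S100a8 reached 10 reads in 2 and 4 cells and S100a9 in 1 and 1.

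With Ifitm1 fewer genes were correlated. Only 4 genes (0.0475%) passed 0.4 with it in both sets, and 2 (0.0238%) passed -0.4. Its closest partner, Gm7676 (0.66 and 0.69), is a processed pseudogene that shares 35.99% of its 31-base words with Ifitm1, so its reads may be those of Ifitm1. Next came Tmem176b (0.45 and 0.45), Adgrg1 (0.48 and 0.40), Fxyd5, a regulator of the sodium pump (0.44 and 0.40), and Vamp5 (0.43 and 0.39, just under the threshold in set 2). The most opposed were Ly6c2 (-0.56 and -0.46), Nucb2 (-0.49 and -0.40), Dstn (-0.58 and -0.38), Lamp1 (-0.34 and -0.34) and the protease inhibitor Slpi (-0.52 and -0.33). Ifitm1 had at least 10 reads together with Elane in 39 of 90 and 54 of 93 cells, and with Lcn2 in 15 and 18. Taken singly, Ifitm1 had as many in 61 and 80 cells, Elane in 65 and 62 and Lcn2 in 18 and 21. No relation is read from these counts.

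Few day 8 cells held several monocyte genes at once. At least 3 of the 5 genes Irf8, Ly6c2, Csf1r, F13a1 and Ly86 reached 10 thinned reads in 12 of 90 and 6 of 93 cells. This was so in 43 of 92 cells on day 0, 25 of 93 on day 10, 35 of 85 on day 12 and 17 of 47 on day 14. All 21 pairs of the 7 detected monocyte genes were positive in both sets, a share that was not counted over all pairs. Their median rho was 0.49 and 0.30, beside 0.005 and 0.007 over all pairs of filtered genes. On days 0, 10, 12 and 14 it was 0.56, 0.57, 0.48 and 0.53, so such correlation was not particular to day 8. Irf8 followed Unc93b1, which carries endosomal Toll-like receptors (0.58 and 0.59), Emb (0.65 and 0.48) and the protease gene Ctss (0.68 and 0.45), and opposed the tetraspanin gene Cd63 (-0.65 and -0.42), whose pseudogene Cd63-ps shares 61.4% of its words. Irf8 and Elane were nearly uncorrelated, at -0.01 and -0.02. For days 0, 10, 12 and 14, Irf8 and Unc93b1 stood at 0.69, 0.66, 0.60 and 0.49. Irf8 and Cd63 stood at -0.79, -0.55, -0.63 and -0.42 there, and Irf8 and Elane at -0.33, -0.12, -0.24 and -0.15. With at least 10 Irf8 reads, 16 of 18 cells in set 1 and 5 of 9 in set 2 had as many of Elane. Over all cells, 65 of 90 and 62 of 93 did.

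Mcpt8 had a read in 70 of 90 and 71 of 93 thinned day 8 cells and Car2 in 49 and 61, while cells with several genes of another branch were fewer. Of Ms4a2, Fcer1a, Cpa3, Gata2 and Mcpt8, genes of mast cells and basophils, at least 1 reached 10 reads in 33 and 31 day 8 cells. Of the same 5, at least 3 did so in 6 and 5 day 8 cells and, for days 0, 10, 12 and 14, in 3, 3, 1 and 0 cells, the 0 being of 47 cells, which allows up to 6.38%. Of the erythroid genes Gata1, Klf1, Car1 and Gfi1b, at least 2 did so in 3 and 6 day 8 cells, in 0 of 92 on day 0 (up to 3.26%) and in 3 on day 10. The 4 and 5 cells with at least 10 reads of Gata1 had a median of 36.5 and 35 reads of Adgrg1, against 9.5 and 12 in the other cells, and of 3 and 2 reads of Elane against 65.5 and 68.5. The 7 and 8 cells with Ms4a2 had 27 and 20 reads of Adgrg1 and 3 and 6.5 of Elane. The eosinophil granule genes Prg2, Prg3 and Epx were all at 10 reads or more in 1 cell of set 2. The summed level of the erythroid and megakaryocyte list was 273 and 321 CPM on day 8 and 71.8 to 144 CPM in the other sets, and its part in the results on Adgrg1 and Car2 was not tested. The mast cell and basophil list summed to 2068 and 2215 CPM on day 8 and 1974 to 3095 CPM elsewhere, the late neutrophil list to 138 and 530 (58.97 to 422), the lymphoid list to 678 and 811 (918 to 1342), the dendritic cell list to 94.3 and 122 (62.4 to 86.8), the macrophage, stroma and endothelium list to 75.3 and 68.7 (76.5 to 116) and the eosinophil list to 26.5 and 210 (26.9 to 517). In set 2 the highest single values were 1607 thinned reads of S100a8, 292 of S100a9 and 2107 of Prg2, so the sums of the late neutrophil and eosinophil lists rest largely on single cells.

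Cell cycle genes were correlated within their own lists. All 24 genes of DNA replication and all 25 of mitosis were detected, with a median rho within the list of 0.19 and 0.23, and of 0.21 and 0.31. The score of a list in a cell is the mean, over its members, of that cell's rank among the cells of its set. The replication score, from genes such as Mcm2, Mcm5 and Pcna, and the mitosis score, from Top2a, Mki67, Ube2c and Cdc20, opposed each other at -0.50 and -0.53. Without the number of detected genes partialled out, these values were -0.36 and -0.15, and that number correlated with the mitosis score at 0.48 and 0.48. Top2a, which untangles DNA, followed the mitotic kinase gene Cdk1 (0.48 and 0.60), Aurkb (0.45 and 0.54) and Mki67 (0.42 and 0.51). Top2a had a median of 5.5 and 8 reads in the Adgrg1-low and 10.5 and 9 in the Adgrg1-high cells, and Mki67 5 and 4 against 5.5 and 5. Within the mitosis list the letters TTTGAA, known as the cell cycle homology region, and CCAAT recur at the start of transcription, as in 2 of its variable genes, with both motifs in capitals on either strand.
Ube2c, chr2:164769679-164769978 (plus strand): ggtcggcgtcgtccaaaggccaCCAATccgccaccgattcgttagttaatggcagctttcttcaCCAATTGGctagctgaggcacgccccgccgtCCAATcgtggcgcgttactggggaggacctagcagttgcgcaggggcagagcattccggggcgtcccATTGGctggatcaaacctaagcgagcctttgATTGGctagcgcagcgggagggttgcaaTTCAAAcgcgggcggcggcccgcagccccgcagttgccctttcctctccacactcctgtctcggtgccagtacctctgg
Cdc20, chr4:118437294-118437593 (minus strand): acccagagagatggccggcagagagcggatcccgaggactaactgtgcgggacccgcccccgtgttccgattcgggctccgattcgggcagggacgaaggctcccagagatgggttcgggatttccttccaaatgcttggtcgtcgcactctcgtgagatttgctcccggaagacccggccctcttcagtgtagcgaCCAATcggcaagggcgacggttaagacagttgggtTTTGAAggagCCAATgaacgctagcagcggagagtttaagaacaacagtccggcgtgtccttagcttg
Ube2c held TTTGAA once and CCAAT 6 times, of which 2 on opposite strands overlap, and Cdc20 once and 2 times. Of the 21 mitosis genes with an entry, 15 (71.4%) held TTTGAA and 19 (90.5%) CCAAT, against 18.1% and 37.9% of all first-listed promoters, while of 20 replication genes 3 (15%) and 11 (55%) did.

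The granule group also held some genes of protein folding in the endoplasmic reticulum. They were picked from the group after their values were seen, and how many other folding genes did not join it was not counted. Hspa5 (BiP) followed Calr (calreticulin) at 0.72 and 0.69, Ms4a3 at 0.68 and 0.68 and Elane at 0.61 and 0.63, and Calr followed Mpo at 0.73 and 0.70. Further members are the chaperone gene Hsp90b1, the disulfide isomerase genes P4hb, Pdia3 and Pdia6, Manf, Sdf2l1 and the transcription factor gene Xbp1. Hspa5 had a median of 81.5 and 85 reads in the Adgrg1-low and 38 and 29 in the Adgrg1-high cells. Hspa5 also opposed Slc34a2, at -0.43 and -0.49. With total reads and the share of Slc34a2 partialled out as well, Hspa5 and Elane stood at 0.61 and 0.61 and Calr and Mpo at 0.71 and 0.63.

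The second largest group, of 17 loci, is Slc34a2 with Prdm16 (0.80 and 0.79), Foxl1, Klhl20, Prr15 and others, whose counts were correlated with each other. Slc34a2 belongs to the list for RNA quality and low cDNA. With total reads and the share of Slc34a2 also partialled out, Slc34a2 and Prdm16 stood at -0.04 and -0.06, though that share is itself a measure of Slc34a2. Pairs of this group are among the 731 and the 336 counted above. What these loci follow was not tested.

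Between lists, the granule score opposed the stem and multipotent progenitor score at -0.68 and -0.57 and followed glycolysis at 0.52 and 0.54. The stem list, which includes Adgrg1, Ifitm1, Cd34 and Angpt1, held 15 detected genes of 20 and was itself loosely correlated, with a median rho of 0.21 and 0.10. Hlf, a transcription factor gene of stem cells, had a read in 13 and 18 cells and Procr in 3 and 4. Monocyte genes opposed mast cell and basophil genes at -0.56 and -0.40, and ribosome biogenesis followed heat shock at 0.62 and 0.61. The share of Slc34a2 moved with glycolysis (-0.56 and -0.53 given the detected genes), heat shock (-0.44 and -0.53), ribosome biogenesis (-0.40 and -0.43) and the granule score (-0.30 and -0.26), and with the stem score (0.16 and 0.27). With it partialled out the granule and glycolysis scores had a mean rho of 0.47 over both sets. Median rho within a list was 0.12 and 0.12 for ribosome biogenesis, 0.13 and 0.13 for glycolysis, 0.19 and 0.20 for heat shock, 0.19 and 0.09 for the immediate early genes, 0.04 and 0.03 for cholesterol synthesis, 0.10 and 0.11 for amino acid stress, 0.001 and -0.02 for p53 targets and -0.04 and -0.07 for the interferon list, of which 4 of 20 genes were detected.

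The same scores were computed in the other sets, with the members detected on day 8. This choice leans towards day 8, as members with few reads elsewhere are mostly tied there. Ifitm1 of the stem list, for example, had a median of 0 thinned reads on days 0 and 12. How much of the differences below rests on this choice was not tested. Granule and stem scores stood at -0.35, -0.32, -0.39 and -0.31 for days 0, 10, 12 and 14, all weaker than in both day 8 sets. Granule and monocyte scores were positive on day 8, at 0.27 and 0.38, and at -0.29, -0.06, -0.16 and -0.03 on days 0, 10, 12 and 14. The day 8 values were 0.13 and 0.29 in cells thinned to 100000 reads, 0.17 and 0.35 without thinning, 0.18 and 0.34 without Slc34a2 and CT010467.1, and 0.20 and 0.19 as Pearson's r of log values. Granule and glycolysis scores stood at 0.52 and 0.54 on day 8 against 0.14, 0.22, 0.17 and 0.40. For each of these, the exact two-sided permutation test over 15 arrangements of the 6 sets gave p = 0.0667. After Benjamini-Hochberg adjustment over 6 relations this was 0.133. As 0.0667 is the smallest p the test allows, it could call none of them different from the other days at 0.05. Replication against mitosis (p = 0.2, exact) and monocyte against mast cell scores (p = 0.733, exact) overlapped between the sides.

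**Figure D4:**
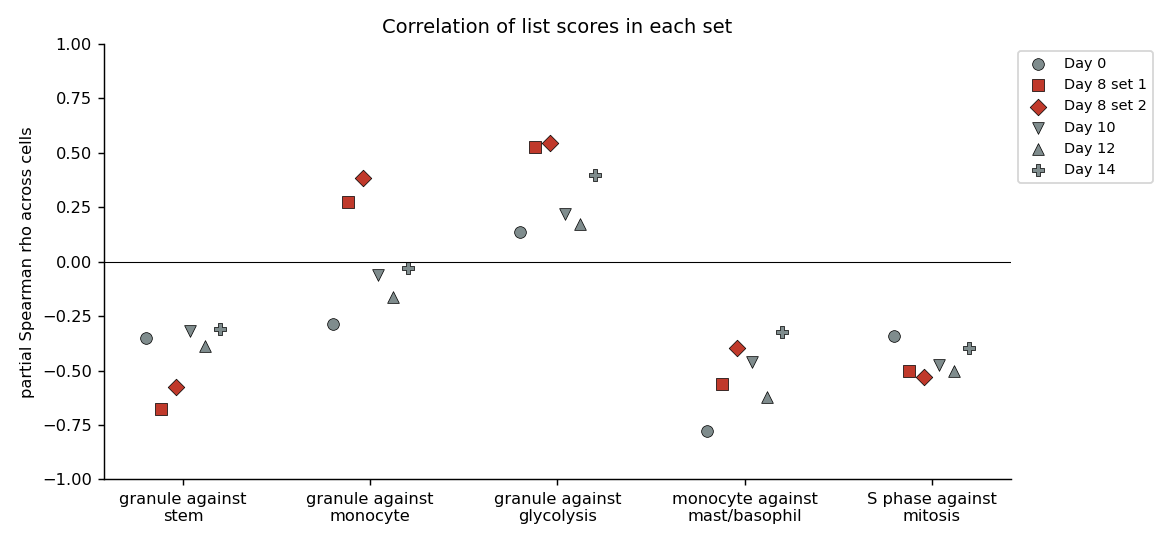
Partial Spearman rho between list scores across the cells of each set; day 8 is in red and each marker is 1 set. The granule and monocyte scores are positive in both day 8 sets (0.27 and 0.38) and below 0 in the other 4.

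The spread of single genes was then tested between days, with 1 value a set. Of 1290 genes, 6 (0.465%) were more variable among cells on day 8 than on the other days and 0 less, by limma with Benjamini-Hochberg adjustment (105 had an unadjusted p under 0.05). All 6 are described above. For Prtn3 the residual spread, in log2 units above the trend, was 2.24 (set 1) and 2.52 (set 2), against 1.03 at day 0, 0.41 at day 10, 0.55 at day 12 and 0.29 at day 14, a difference of 1.81 ± 0.29 (SE, adjusted p = 0.031). For Elane it was 3.73 (set 1) and 3.44 (set 2), against 2.15 at day 0, 1.47 at day 10, 1.41 at day 12 and 1.06 at day 14 (2.06 ± 0.36, adjusted p = 0.031). Ctsg differed by 1.80 ± 0.30 (adjusted p = 0.031), Lgals9 by 1.71 ± 0.25 (adjusted p = 0.0266), Plac8 by 1.49 ± 0.27 (adjusted p = 0.031) and Fcgr3 by 1.14 ± 0.20 (adjusted p = 0.031). In all 6 the day 8 sets lay above every other set, but the test chose these genes on the same values. How many of all genes tested do so is not counted here. Ly6c2 (2.66 ± 0.51, adjusted p = 0.0514) and Mpo (2.06 ± 0.42, adjusted p = 0.0755) missed the threshold, and Adgrg1 (0.19 ± 0.28) and Ifitm1 (-0.20 ± 0.53) did not pass (adjusted p = 0.956 and 0.992). Of the granule list, 3 of 7 tested genes were called and the median difference was 1.80, beside 0.004 over all genes tested.

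No gene was called when days 10 and 14, the male sets, were the other side (70 unadjusted), or without set 1 (56 unadjusted), and 2 genes, neither of these 6, were called without set 2. Without the reads of Slc34a2 and CT010467.1, which also lowers the thinned depth to 40000 reads, 1 of the 6 was called, and 6 of 6 without day 14.

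**Figure D5:**
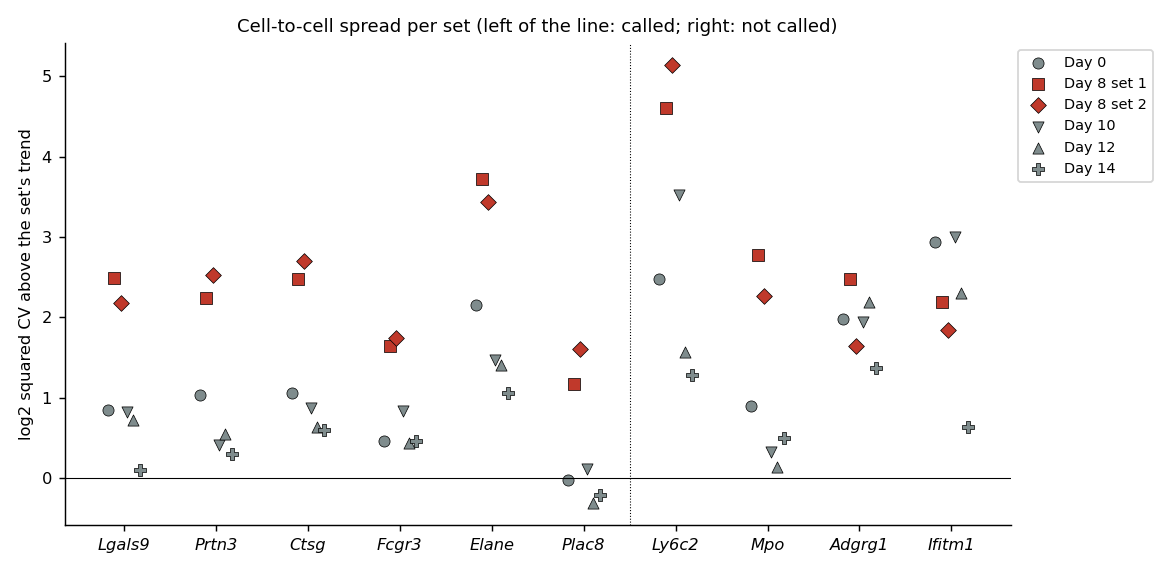
Cell-to-cell spread of 10 genes in each set, as log2 squared coefficient of variation above the trend of the set; day 8 is in red. The 6 genes left of the dotted line were called, such as Prtn3 at 2.24 and 2.52 on day 8 against at most 1.03 in the other sets.

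In summed levels, 4 of 14864 genes (0.0269%) were called between day 8 and the other sets, all lower on day 8, and 1608 had an unadjusted p under 0.05. Elane stood at 2587 CPM (set 1) and 2897 CPM (set 2), against 17299.6 at day 0, 12105 at day 10, 15599 at day 12 and 19395 at day 14, a log2 fold change of -2.55 ± 0.21 (edgeR, adjusted p = 0.00138). Ltb4r1, the leukotriene B4 receptor, stood at 20.4 CPM (set 1) and 18.1 CPM (set 2), against 85.6 at day 0, 69.1 at day 10, 70.7 at day 12 and 71.1 at day 14 (-1.95 ± 0.21, adjusted p = 0.0115). Smpdl3a, a phosphodiesterase, stood at 36.8 CPM (set 1) and 46.8 CPM (set 2), against 201 at day 0, 123 at day 10, 132 at day 12 and 146 at day 14 (-1.85 ± 0.24, adjusted p = 0.0368), and Fcgr3, whose product is bound by the sorting antibody, at 105 CPM (set 1) and 117 CPM (set 2), against 296 at day 0, 362 at day 10, 276 at day 12 and 344 at day 14 (-1.52 ± 0.19, adjusted p = 0.0223). In each the day 8 sets lay below every other set, but the test chose these genes on the same values. How many of all genes tested do so is not counted here.

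Genes called for spread were not all called for level. Prtn3 stood at 3577 CPM (set 1) and 3494 CPM (set 2), against 4872 at day 0, 6923 at day 10, 4864 at day 12 and 7127 at day 14 (-0.75 ± 0.20, adjusted p = 0.217), and Plac8 and Ctsg at -0.45 ± 0.16 and -0.53 ± 0.19 (adjusted p = 0.36 and 0.365). Of 12 granule genes tested for level 1 was lower and 0 higher, with a median of -0.85, and of 13 monocyte genes 0 were called, with a median of -1.37, beside -0.02 over all genes. Of 19 stem and progenitor genes 0 were called (median 0.85). The mast cell and basophil list (8 tested), the erythroid and megakaryocyte list (9), ribosome biogenesis (20) and heat shock (10) had medians of 0.83, 2.54, 0.52 and 0.60 with 0 called. The other sets were 1 per day, so their change between days counts as spread in this test. A mean for each day leaves only the gap between the 2 day 8 sets as spread, as no other day has a second set. With a mean for each day instead, 738 genes were higher and 566 lower, and without day 14, the shallowest set, 15 and 31; against the male sets alone 0 were called (977 unadjusted), and 0 without set 1 (719 unadjusted) and 2 without set 2. The log2 fold change of Elane stayed between -2.45 and -2.63 in all 10 alternatives, and missed the threshold against the male sets (adjusted p = 0.24) and without set 1 (adjusted p = 0.0578).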

How the data were processed

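Single GMPs were sequenced with Smart-seq2. The authors deposited raw counts of reads per gene and cell, made with GSNAP and HTSeq (0.5.3p3) on mm10, per the submitters' processing notes; strand was not used. The 5 rows that name no gene, with a median of 87.8% of a day 8 cell's reads, and the 92 spike-in rows stayed out of totals. A further 1 column, with no labelled cell, was not used. Here cells with at least 50000 reads and 1000 genes were kept and thinned to 50000 reads; 183 day 8 cells passed. No doublets were called, as each well received 1 sorted cell. Whether the 2 day 8 sets are separate mice is not given, and each p-value rests on how much sets vary, which may be technical.

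Counts summed per set were tested with edgeR 4.0.16 (TMM, quasi-likelihood), spread with limma 3.58.1, and both with Benjamini-Hochberg adjustment at 0.05; DESeq2 1.42.0 was an alternative (R 4.3.3, Python 3.11.15, numpy 2.4.6, scipy 1.17.1, statsmodels 0.14.6). Tests were checked on simulated data. Intervals and limits for 0 counts (3 counts) cover counting error only. Genes were named by rule: the 3 markers, the 20 most variable genes, the 10 highest and 5 lowest pairs, 5 partners each way, up to 6 members of a list, and the 5 largest called changes; others were chosen after their values were seen. Members and lists were chosen with earlier results of these data known. Promoters are from RefSeq GRCm38.p6.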

Additional observations from a re-analysis of the deposited data

How the results depend on the processing

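Between 0 and 1304 genes were called for level, where 4 were reported: 1304 with a mean per day, 0 against the male sets, 46 without day 14, 508 with no gene filter, 20 with cells of at least 4000 genes, 31 with thinned cells and 289 with the DESeq2 Wald test, and 0 to 2 without one day 8 set, where the lone set is assumed to vary like the others. Calls of spread numbered 0 against the male sets, 1 without Slc34a2 and CT010467.1, and 0 to 2 without one day 8 set. Variable genes numbered 17 with a mean of at least 20 reads, since only 167 genes were then considered, and 68 to 79 in a single set. Correlated pairs numbered 1799 to 1848 in a single set. With the 2 cell cycle scores partialled out, the median rho became -0.0309 within the replication list and -0.0227 within the mitosis list, which follows from removing those scores. Of the values of single genes and lists, 137 counted as the same, 49 moved, 34 lost and 8 gained a call, and 2 reversed. For a gene, the same means the same side of the threshold. For a list or score, it means a shift of the mean by no more than the standard deviation of the 2 day 8 values, and moved means a larger shift, however small that deviation. For lists and scores, the limit of 4000 genes kept the same 90 and 93 cells, so those entries could not differ. Where no cause is given, the cause was not tested. No paired analysis was possible because only day 8 has more than 1 set, so the sides share fewer than 2 replicate numbers. For the same reason, calls with a mean per day rest on the gap between the 2 day 8 sets alone. Depth limits genes of a few reads: at 50000 reads a cell at 0 may still hold the transcript.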
